A study of Drosophila melanogaster with 2 samples.

Results

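The genes described here are those that the deposited gene table places on the unplaced scaffolds of the Drosophila melanogaster genome, listed as chromosome U of build dm3, without the repeats of the Stellate family. They were chosen by their listed chromosome and by the absence of Ste or Stellate from their symbol and description, so no measured value entered the rule. Of the 146 rows on U, 41 were Stellate-family repeats (40 described as Su(Ste), Suppressor of Stellate, and 1 as a Stellate gene), and the remaining 105 genes were the members, of 15421 genes in all. The measurement was a ChIP-seq of dBigH1 in whole testes, with 1 library of immunoprecipitated chromatin and 1 library of input DNA. Both the dBigH1 library, made with an antibody to dBigH1, and the input library, made without one, came from fixed testes of adult w1118 males from which the accessory glands had been cut away. The testes were pooled, 1000 to a pool, and no separate animals can be told apart. Germ cells of every stage and the somatic cells of the testis were therefore mixed, and a stronger signal per cell cannot be told apart from a signal in more cells. With 1 library on each side no value has a replicate check, no test was possible, and each comparison below describes these libraries.

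Linker histones bind where DNA enters and leaves the nucleosome and help to compact chromatin. dBigH1 is the linker histone variant of the early embryo and the germline of Drosophila, where the somatic linker histone is encoded by the repeated His1 genes. The unplaced scaffolds are assembled pieces that build dm3 could not assign to a chromosome. They come mostly from heterochromatin around the centromeres and on the Y, which is rich in repeats and kept compact. The assembly joins them into a single sequence whose order is not that of the chromosomes, so that a position on U is not a position on a chromosome. Several genes of male fertility lie in such sequence, among them genes on the Y that are transcribed in spermatocytes.

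The dBigH1 library held 2864636 reads and the input library 12747726. Reads in members numbered 12058 in dBigH1 and 28186 in input, or 0.421% and 0.221% of the library totals. The median member had 25 dBigH1 reads and 49 input reads. Fewer than 10 dBigH1 reads were counted in 30 of the 105 members, and in 23.3% of all genes. No gene is listed with 0 reads in either library, so that the lowest possible value is 1 read. Levels are given as RPKM, which scales the reads to gene length and to the library total. Ratios are dBigH1 over input on the log2 scale, relative to the median gene of the table. For groups of genes they were computed from RPKM with 1 added to each value, which draws low genes toward equal RPKM in both libraries. Before centring the median ratio of all genes was -0.85, so that equal RPKM lies more than 1.5-fold above the median gene. For single genes and for summed reads the ratios were computed from the reads and are called read ratios, with an exact 95% Clopper-Pearson interval. The libraries were amplified by 18 cycles of PCR and no molecular identifiers are named, so that reads need not be independent molecules and the intervals cover counting error only.

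Nearly every member stood above the median gene. Over the 104 members that had an RPKM of 1 or more in either library, the median ratio was 1.77, with quartiles at 1.21 and 2.13, while the ratio of all genes is 0 by definition and had quartiles at -0.32 and 0.32. Medians and quartiles of ratios are given over the genes that reached this minimum. Of the 104 members, 94 stood 1.5-fold or more over the median gene, or 90.4%, against 12.9% of all genes. A single member lay at least 1.5-fold below it, against 11.5% of all genes. The minimum was passed by 4 members through the dBigH1 library alone. Without the minimum, 95 of all 105 members were at least 1.5-fold higher, again against 12.9% of all genes, and the median was 1.76. For 79 of the 105 members the whole interval of the read ratio was above the median gene, or 75.2%, against 17.9% of all genes. It lay wholly below for 0 members, against 9.41% of all genes. dBigH1 RPKM exceeded input RPKM in 89 members, or 84.8%, and in 7.61% of all genes. Without centring on the median gene, 73 members were at least 1.5-fold higher and 6 at least 1.5-fold lower, against 2.88% and 71% of all genes. Of the 75 members with 10 or more dBigH1 reads 72 were at least 1.5-fold higher, and 22 of the 29 with fewer reads that reached the RPKM minimum. Since dBigH1 reads are the numerator of the ratio, this split favours the first group by construction and shows no effect of depth. With the median gene taken over the 11821 genes with 10 or more dBigH1 reads, 70 members were at least 1.5-fold higher, against 10.8% of those genes.

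Set against the arms of the autosomes (2L, 2R, 3L and 3R, with 12764 genes), the members had more dBigH1 signal and less input. Their median dBigH1 RPKM was 8.92, against 4.25 on the arms. Their median input RPKM was 4.39, against 8.60 on the arms. The 100 genes on mapped heterochromatin scaffolds, the sequence most like the unplaced one, had a median dBigH1 RPKM of 5.08 and an input RPKM of 5.09. Median ratios differed by 1.78 between the members and the arms and by 0.76 between the members and mapped heterochromatin. The median of mapped heterochromatin, 1.01, was close to the 1.08 of members that have a CG identifier. Members with a FlyBase ID alone stood well above it, at 1.97. Reads summed over the members gave a ratio 3.82-fold above the median gene (3.74 to 3.90). The same sum was 2.99-fold (2.96 to 3.02) in mapped heterochromatin, 1.25-fold on the arms and 1.32-fold over all genes. These intervals cover counting error and not the spread between genes, so they do not compare the groups. Long genes weigh heavily in such sums, and 5 members held 72.5% of the dBigH1 reads of all members. No source used here states how reads with several matches were treated, and the part of repeated sequence in these levels was not tested.

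**Figure D1:**
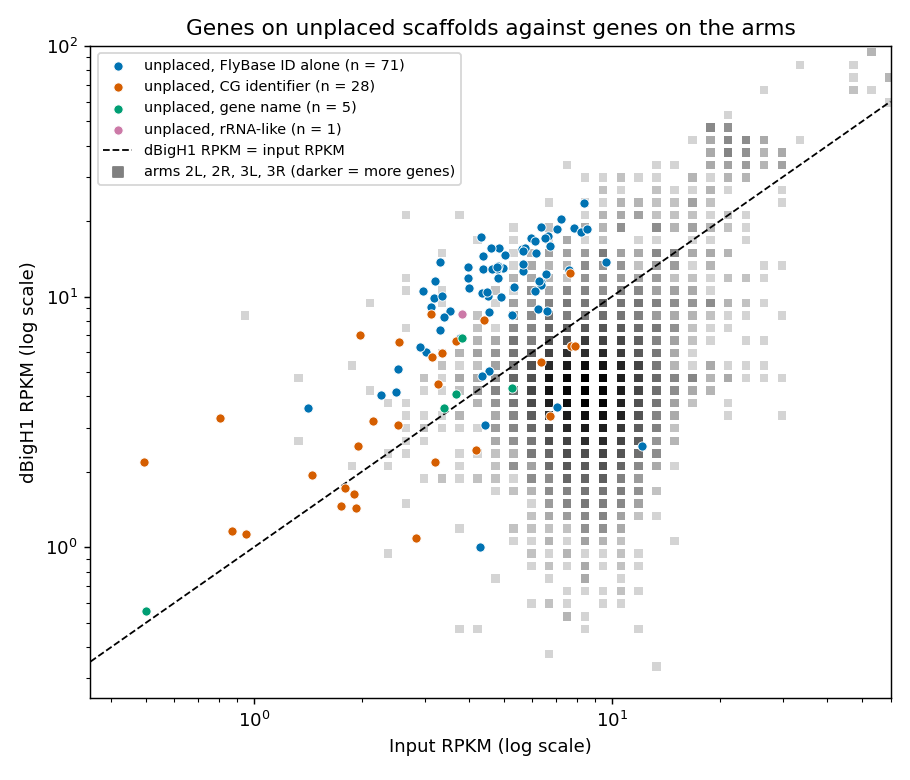
dBigH1 RPKM against input RPKM, both on log scales, for the 105 members (coloured by how they are named) and for genes of the arms as a grey density. Most members, 89 of 105, lie above the dashed line of equal RPKM, left of the bulk of arm genes and higher.

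The Stellate-family repeats share the unplaced sequence. Nearly all of those on U are Su(Ste) repeats, the source of the piRNAs that silence the Stellate genes, whose protein otherwise forms crystals in spermatocytes. All 41 reached 1.5-fold, with a median ratio of 1.72, so that the members stood 0.05 above them. This difference changed sign with the scale, to -0.017 with 5 in place of 1 added to RPKM and to -0.088 with means in place of medians, and no direction is given. The members were more scattered, from -1.05 to 2.62 against 0.96 to 2.21 in the Stellate-family repeats, of which 2 had fewer than 10 dBigH1 reads. Median RPKM was 8.92 in dBigH1 and 4.39 in input for the members, and 10.3 and 5.07 for the Stellate-family repeats.

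The members fell into 4 classes by how the table names them. A FlyBase ID with neither symbol nor description was all that 71 of them had. A CG identifier named 28, a gene name 5, and ribosomal RNA 1. The genes with an ID alone had the highest signal: 67 of 71 were 1.5-fold or more over the median gene, and 1 was as far below. Their median ratio was 1.97, their median dBigH1 RPKM 11.9 and their median input RPKM 4.82. Genes with a CG identifier had a median ratio of 1.08, on a median dBigH1 RPKM of 3.24 and an input RPKM of 2.69. Of these 28, 22 reached 1.5-fold and 0 were as far below. Summed reads lay 4.82-fold above the median gene (4.62 to 5.03) in genes with an ID alone and 3.57-fold (3.48 to 3.66) in genes with a CG identifier. A few long genes weigh heavily in these sums. CG41520, CG40378 and CG42623 held 2958, 2810 and 1503 of the 8047 dBigH1 reads with a CG identifier, and FBgn0263759 held 838 of the 3308 with an ID alone. The intervals cover counting error and not the spread between genes, so they do not compare the classes. Depth differed between them as well, with medians of 31 and 8 dBigH1 reads. Median lengths were close, at 1001 bp with an ID alone and 934 bp with a CG identifier.

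**Figure D2:**
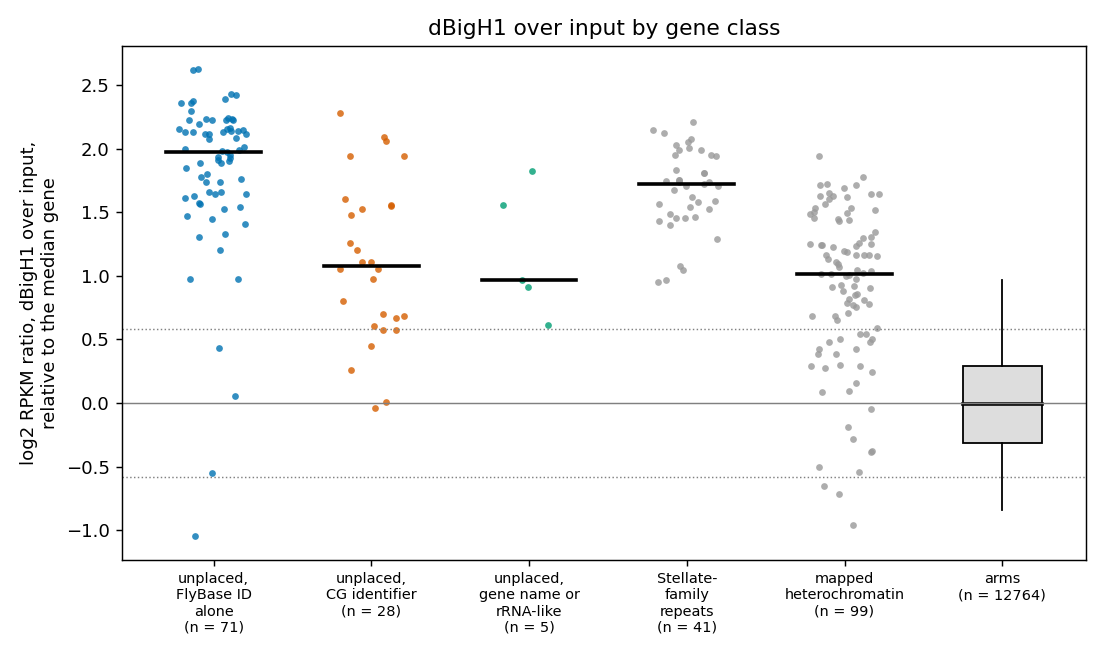
Ratio of dBigH1 over input for members by class, for Stellate-family repeats, for mapped heterochromatin and for the arms. Each point is a gene and each thick line a median; for the arms the box spans the quartiles and the thin lines percentiles 5 to 95, and dotted lines mark 1.5-fold. Medians are 1.97 for members with a FlyBase ID alone, 1.08 for those with a CG identifier, 1.01 in mapped heterochromatin and -0.01 on the arms.

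A few long genes carried most of the reads. The 5 members with most dBigH1 reads held 72.5% of the dBigH1 reads and 72.9% of the input reads of all members, and they are the most precisely measured. CG41520 (FBgn0087011, U, 1242085 to 1369506) had 2958 dBigH1 reads against 7132 input reads. With an RPKM of 8.10 in dBigH1 and 4.39 in input, it stood at a read ratio of 1.89 (1.83 to 1.95). CG40378, which RefSeq now counts into DIP-lambda, a gene for a cell-surface protein of the immunoglobulin family, had 2810 dBigH1 reads against 6901 input reads and a ratio of 1.86 (1.80 to 1.93). CG42623, now counted into the unconventional myosin gene Myo81F, had 1503 against 3661 and a ratio of 1.87 (1.79 to 1.96). klhl10 (FBgn0040038, U, 1906795 to 1938882), a testis gene whose product directs a ubiquitin ligase needed when spermatids separate, had 630 against 1557 and a ratio of 1.85 (1.72 to 1.99). These 4 read ratios lay within 0.04 of each other, and each interval held the other 3 values. The exception was FBgn0263759 (U, 250707 to 282981), which the table gives no name. It had 838 dBigH1 reads against 1289 input reads, an RPKM of 9.06 against 3.13 and a read ratio of 2.54 (2.41 to 2.66), above the intervals of the other 4.

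Other members with names were lower or measured on few reads. CG40196, now Maf1, which encodes a repressor of RNA polymerase III, had 408 dBigH1 reads against 1117 input reads and a read ratio of 1.71 (1.54 to 1.87). CG17691, now BckdhB, which encodes a subunit of the enzyme that breaks down branched-chain keto acids, had 94 against 484 and a ratio of 0.79 (0.46 to 1.12). JYalpha, which encodes a sodium pump subunit needed for sperm motility, had 51 against 276 and a ratio of 0.72 (0.26 to 1.16). A separate JYalpha model on chromosome 4 had 23 against 69 and a ratio of 1.57 (0.82 to 2.27), and the intervals of the 2 models overlap. FBgn0085494, described as a male-specific pseudogene 77Y, had 13 against 52 and a ratio of 1.16 (0.16 to 2.06). The copies of this family also lie on the Y, and the protein of the parent gene packs DNA in sperm. Gpa2, the alpha subunit of a glycoprotein hormone, had 5 against 21 and a ratio of 1.09 (-0.68 to 2.53). At this depth Gpa2 could not be told from the median gene.

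Ribosomal RNA was represented by a single member, the 5.8S gene CR40454 (FBgn0250731, U, 3653469 to 3653591), whose RNA is part of the large ribosomal subunit. It had 3 dBigH1 reads against 6 input reads, and its read ratio of 2.16 had an interval from -0.47 to 4.39. It lay in a run of 4 members less than 10 kb apart, of which the other 3 have an ID alone. Those 3, FBgn0085778, FBgn0085779 and FBgn0085780, had 3, 5 and 4 dBigH1 reads against 12, 9 and 10 input reads. Only the interval of FBgn0085779 lay wholly above the median gene, at 2.31 (0.39 to 4.04).

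**Figure D3:**
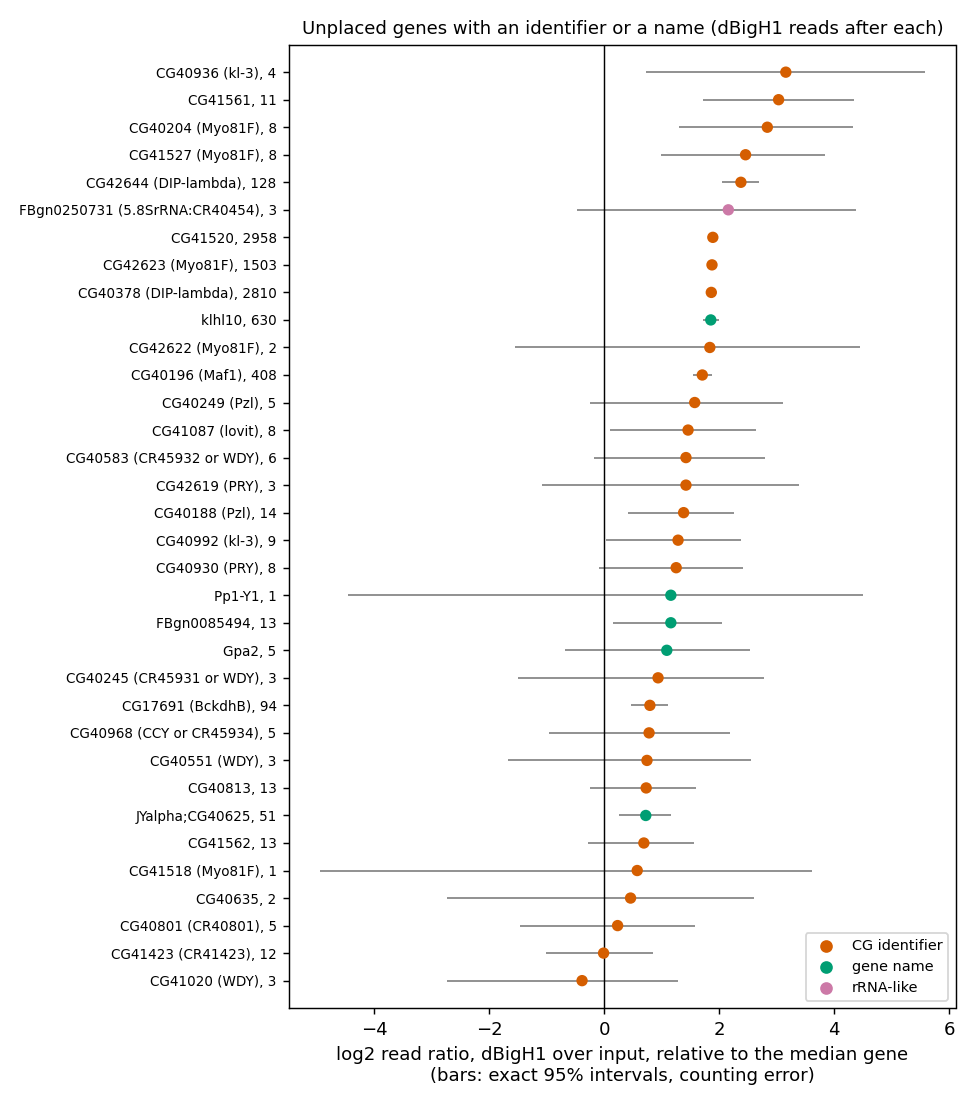
Read ratio of dBigH1 over input relative to the median gene for the 34 members with an identifier or a name, ordered by value, with exact 95% intervals for counting error. Current RefSeq names stand in parentheses and dBigH1 reads after each gene; intervals range from very narrow for CG41520, on 2958 reads, to very wide for Pp1-Y1, on 1 read.

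Members that RefSeq now counts into Y genes had low levels. Of the 33 members with a RefSeq name, 7 belong under genes known to lie on the Y: the dynein heavy chain gene kl-3, the WD-repeat gene WDY, the polycystin-related gene PRY, and Pp1-Y1, a protein phosphatase gene. Their median RPKM was 1.16 in dBigH1 and 0.951 in input, and none had more than 9 dBigH1 reads. Summed over the 7 members under Y genes there were 31 dBigH1 reads against 132 input reads, a ratio 2.10-fold above the median gene (1.37 to 3.12). The kl-3 models CG40992 and CG40936 had 9 against 33 and 4 against 4 reads, with read ratios of 1.28 (0.04 to 2.38) and 3.16 (0.73 to 5.58). The longer kl-3 model on the Y scaffold, which is no member, had 255 against 551 reads and a ratio of 2.05 (1.83 to 2.26), inside both intervals. The PRY models CG42619 and CG40930 had 3 against 10 and 8 against 30 reads, and their summed ratio was 1.30 (0.18 to 2.29). The WDY models CG40551 and CG41020 had 3 against 16 and 3 against 35 reads, with ratios of 0.74 and -0.39 and a summed ratio of 0.07 (-1.44 to 1.29). Pp1-Y1 had 1 against 4 reads, was the member that did not reach the RPKM minimum, and could have had any ratio from -4.46 to 4.495. A further 3 members, CG40245, CG40583 and CG40968, are listed under a Y gene and under a separate RefSeq gene at once and were kept out of these sums.

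Several unplaced models belong to genes whose other models lie on mapped heterochromatin, which allowed a comparison within a gene. Myo81F had 10 models in the table, 5 of them members. Reads summed over the unplaced models gave a ratio of 1.88 (1.79 to 1.97), against 1.97 (1.93 to 2.01) over the models elsewhere. CG42623 held 1503 of the 1522 dBigH1 reads of the unplaced models, so that their sum is nearly that of this model alone. Among the 5 unplaced models, CG40204 and CG41527, on 8 dBigH1 reads each, stood at 2.84 (1.29 to 4.33) and 2.46 (0.98 to 3.84), and CG41518, on 1 read, at 0.57 (-4.95 to 3.62). Pzl, a relative of the Piezo mechanosensitive channel, gave 1.43 (0.61 to 2.19) over its 2 unplaced models and 1.83 (1.78 to 1.87) over the models elsewhere. lovit, which encodes a histamine transporter of photoreceptor synapses, gave 1.46 (0.10 to 2.64) in its unplaced model and 1.72 (1.67 to 1.77) elsewhere. In each of these 3 genes the intervals of unplaced and mapped models overlap. Intervals of summed reads cover counting error and not the spread between models of a gene, so the overlap does not compare the places. The mapped models of Pzl stood at 1.94 (1.88 to 1.99), 1.71 (1.62 to 1.79) and 1.68 (1.57 to 1.78). Those of lovit stood at 1.81 (1.74 to 1.87) and 1.55 (1.45 to 1.64). DIP-lambda had both of its models on U, and there the shorter one stood apart. CG42644 had 128 dBigH1 reads against 220 input reads and a ratio of 2.38 (2.05 to 2.70), above the interval of CG40378.

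The highest RPKM ratios on at least 10 dBigH1 reads belonged to genes with an ID alone. FBgn0085802 (U, 9795507 to 9796558) led with 52 dBigH1 reads against 58 input reads, an RPKM of 17.3 against 4.32 and a read ratio of 3.001 (2.43 to 3.57). FBgn0085749 (U, 9835705 to 9836749) had 41 against 44 reads, an RPKM of 13.7 against 3.30 and a read ratio of 3.06 (2.41 to 3.70). The other 6 of the 8 highest were FBgn0085737, FBgn0085803, FBgn0085750, FBgn0085766, FBgn0085751 and FBgn0085770, with 20 to 53 dBigH1 reads each. Their read ratios ran from 2.59 to 2.85, and the lowest bound of all 8 intervals was 1.86. FBgn0085752, on 8 dBigH1 reads against 10 input reads, had the highest RPKM ratio of the members with fewer than 10 dBigH1 reads, and its read ratio was 2.84 (1.29 to 4.33). Among all genes that reached the RPKM minimum, 34 of the 100 with the highest ratios were members, or 34.0% of that list and 32.4% of the members. Members made up 104 of the 15419 genes ranked.

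Members with an ID alone varied among themselves. The ratio of their summed reads, 2.27 on the log2 scale, lay inside the interval of 60 of the 71. The same count about their own summed ratio was 40 of 41 in the Stellate-family repeats and 9205 of 15421 over all genes, and it depends on how wide the intervals are. The 4 that did not reach 1.5-fold were FBgn0058068, FBgn0085784, FBgn0085734 and FBgn0085540. FBgn0058068 (U, 1206488 to 1206901) had 3 dBigH1 reads against 64 input reads. Its input RPKM of 12.1 was the highest of any member, its dBigH1 RPKM was 2.53, and its read ratio was -1.26 (-3.57 to 0.36). FBgn0085540 had 1 read against 19 and a ratio of -1.09 (-6.47 to 1.56). FBgn0085784 and FBgn0085734 had 5 against 43 and 19 against 122 reads, with ratios of 0.05 (-1.64 to 1.39) and 0.48 (-0.31 to 1.18). All 4 intervals span the median gene and lie below 2.27.

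Among the 8 lowest members with at least 10 dBigH1 reads, 5 have a CG identifier. CG41423, at the median gene with a read ratio of -0.01 (-1.01 to 0.85), had 12 dBigH1 reads against 108 input reads and an RPKM of 3.33 against 6.73. CG40813 and CG41562 are each 715 bp long and had 13 dBigH1 reads each, against 70 and 72 input reads. Their ratios of 0.73 (-0.25 to 1.60) and 0.69 (-0.29 to 1.55) have overlapping intervals. Whether these 2 genes share sequence was not tested. CG40188, a Pzl model, closed this list at 1.38 (0.41 to 2.26). CG41020, the WDY model above, was the lowest gene with a CG identifier at -0.39 (-2.73 to 1.28).

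Along the joined sequence, genes with an ID alone crowded toward the far end. In bins of 1 Mb, the tenth held 31 members, of which 30 had an ID alone and 30 reached 1.5-fold, with a median ratio of 2.12. The ninth bin held 16 members, with a median of 2.01 over the 15 that reached the RPKM minimum. Across the first 8 bins medians ran from 0.69 in the third to 2.08 in the fifth, with 2 to 9 members in each. Within the ID-alone class the tenth bin had a median of 2.12 over 30 genes and the ninth one of 2.12 over 13 genes. The lowest was the second bin, where the 2 genes FBgn0058068 and FBgn0085784 gave a median of -0.50. Spearman's rho between ratio and position was 0.50 over the 105 members and 0.40 over the 71 with an ID alone, as a description across genes of 1 pair of libraries. Since the order of the scaffolds is arbitrary, the bins stand for stretches of assembly and not for a distance on a chromosome. No member overlapped another listed gene, and 26 members lay in 9 runs of genes less than 10 kb apart. The longest run, of 5 genes from 8836245 to 8864332, had read ratios from 1.86 to 2.84.

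**Figure D4:**
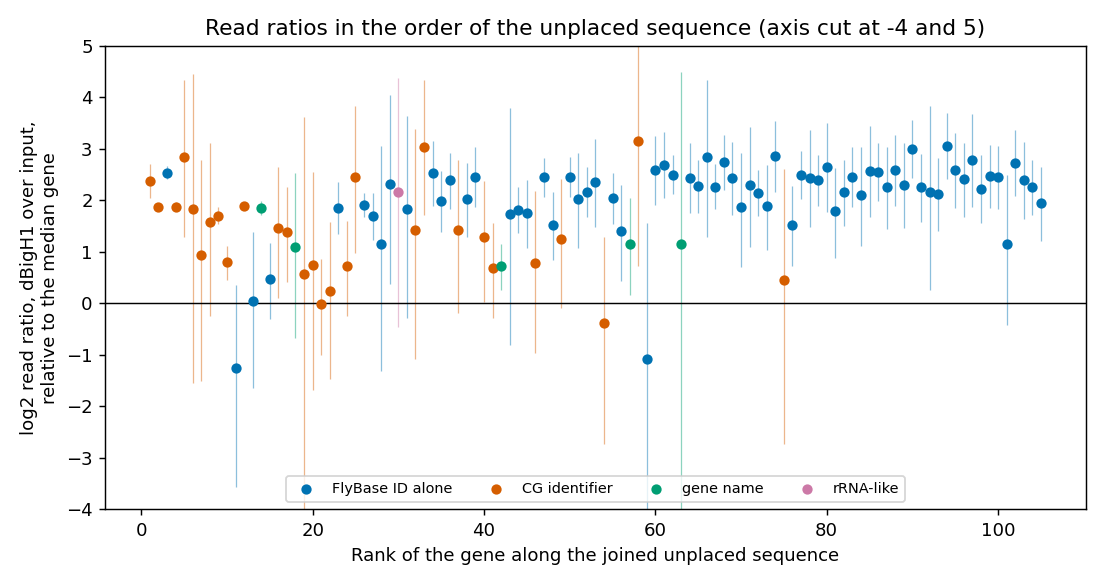
Read ratio of dBigH1 over input relative to the median gene for the 105 members in the order of the joined unplaced sequence, with vertical lines for exact 95% intervals. Members with a FlyBase ID alone fill most of the right part, with points near the ratio of 2.27 of their summed reads, while those with a CG identifier lie to the left and spread lower.

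The median of the members stood above those of mapped heterochromatin and the arms in every length class. Of members from 1000 to under 2000 bp, 37 of 38 reached 1.5-fold, or 97.4%, with a median ratio of 1.99. Stellate-family repeats of that length had a median of 1.72, the 19 genes of mapped heterochromatin 0.55, and the 3390 genes of the arms -0.15, of which 5.16% were at least 1.5-fold higher. From 500 to under 1000 bp the medians were 1.74 in members, 1.73 in Stellate-family repeats, 0.85 in mapped heterochromatin and -0.02 on the arms. Members shorter than 500 bp had a median of 1.47, against 1.20 in mapped heterochromatin and 0.34 on the arms, where 37.8% of genes were at least 1.5-fold higher. The 19 members of that class had a median of 5 dBigH1 reads. The 6 members of 10000 bp or more had a median of 1.56, against 1.19 for the 44 such genes of mapped heterochromatin and 0.27 for 1495 genes of the arms. Across members, Spearman's rho of the ratio was 0.07 with length and 0.11 with input RPKM, where over all genes it was 0.08 and -0.36.

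**Figure D5:**
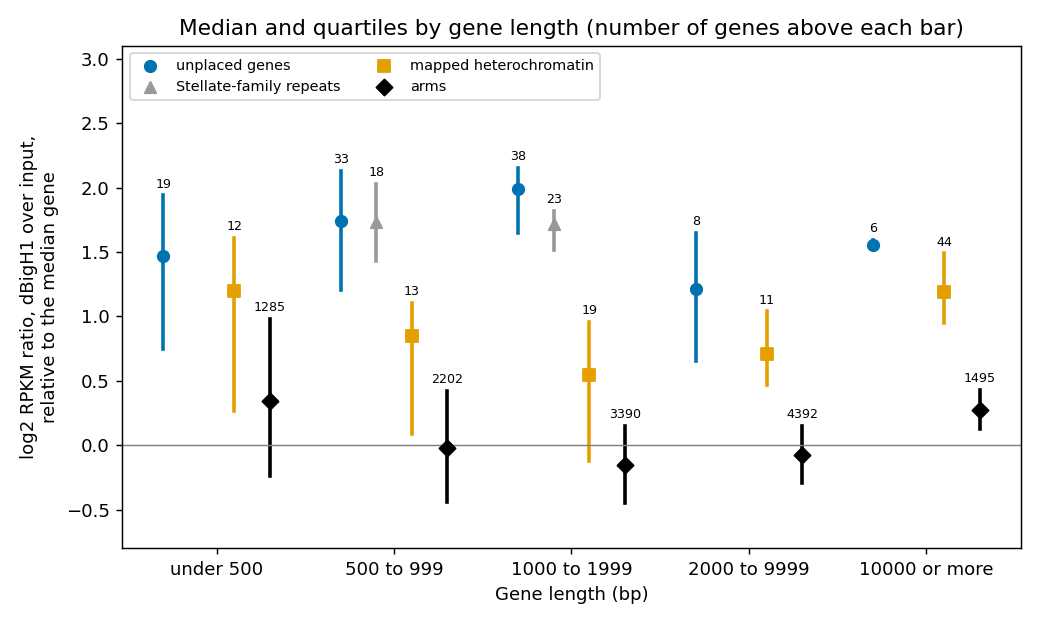
Median ratio of dBigH1 over input (symbols) and quartiles (bars) by gene length for members, Stellate-family repeats, mapped heterochromatin and the arms, with the number of genes above each bar. Medians of members stand above mapped heterochromatin and the arms in all 5 length classes, by the widest margin from 1000 to under 2000 bp.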

How the data were processed

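One table of 15421 FlyBase genes was deposited, with 1 value per gene for the dBigH1 library and 1 for the input library. The tools named by the submitters' processing notes are R 2.15, FastQC 0.10, Bowtie2 and CASAVA 1.9, and the build is dm3. Both library columns were deposited as log2 RPKM, per the file headers. After 1 was subtracted from the exponentiated values, 100% became whole reads within 0.01 read, so they were read as log2(RPKM + 1), and reads and library totals were recovered from them. The authors deposited a further column, whose header names MAnorm, which has the mean and SD (0.999) of a standardized score and was used as an alternative, as a score. Ratios, intervals, counts and medians were computed in Python 3.11.15 with numpy 2.4.6, pandas 2.3.3 and scipy 1.17.1. The functions were checked on simulated reads. Precision is limited by the 2864636 dBigH1 reads. Symbols were matched to RefSeq names (Release 6), which were used for names only and matched 33 of the 105 members. Sequences were not used here.

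Named members were those with a gene name, the rRNA-like gene, the 8 highest and 8 lowest ratios with at least 10 dBigH1 reads, the 5 with most dBigH1 reads, and the 3 highest and 3 lowest with fewer. Models of a RefSeq gene or of a run, and any other gene, were named after their values were seen. The rule that set the members used no measured value, but it, the classes and the comparisons were chosen with earlier results of these data known. Alternatives covered pseudocounts, minimums, overlapping genes, centring, the fold threshold, means and the score.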

Additional observations from a re-analysis of the deposited data

How the results depend on the processing

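The median ratio of the unplaced genes kept its direction under every alternative run. It was 2.09 with a pseudocount of 0.1, 1.09 with 5, 2.12 as a read ratio with no pseudocount, 1.44 over the 34 members whose RPKM reached 5 in both libraries, 1.56 as a mean and 2.54 on the deposited MAnorm score. In the same order its difference from the arms was 2.09, 1.11, 2.12, 1.46, 1.58 and 2.63. The difference from mapped heterochromatin was 0.48 with a pseudocount of 5. The difference from the Stellate-family repeats reversed to -0.017 with a pseudocount of 5, -0.088 with means and -0.62 on the score; the cause was not tested. With the RPKM minimum of 5 in both libraries, 31 of 34 members were at least 1.5-fold higher, in place of 94 of 104, since fewer genes enter by construction. The share of all genes was 15.4% there, in place of 12.9%. Members at least 1.5-fold lower numbered 2 with a pseudocount of 0.1 or none, against 16.7% and 17.3% of all genes. Without centring they numbered 6, against 71% of all genes. With the RPKM minimum of 5 or with at least 10 dBigH1 reads they numbered 0, against 4.0% and 7.35% of all genes. Of 30 named members, 25 had their RPKM ratio inside the interval of the read ratio. The other 5, the ones with most dBigH1 reads, lay below it. Their intervals are narrow because they hold many reads. For CG41520 the read ratio was 1.89 (1.83 to 1.95) and the RPKM ratio 1.60. FBgn0085749, on 41 dBigH1 reads, went from 3.06 (2.41 to 3.70) to 2.62 and stayed inside its interval. No paired analysis was possible because each group has 1 library, and for the same reason no replicate could be left out. With 30 members under 10 dBigH1 reads, only large differences were detectable for those genes.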

Other observations

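In the authors' deposited table the MAnorm score ordered the members differently from the ratio. Spearman's rho between score and ratio was 0.62 over the 105 members and 0.47 over the 71 with a FlyBase ID alone, where over all genes it was 0.88. Among the 8 highest members, read ratios ran from 2.59 to 3.06, while scores in the authors' deposited table ran from 1.92 for FBgn0085770 to 6.10 for FBgn0085749. FBgn0085738, chosen after its values were seen, had the highest dBigH1 RPKM of the members, at 23.6 against an input RPKM of 8.37, and a read ratio of 2.502 (2.12 to 2.87), but a score of 1.68 in the authors' deposited table. Within the ID-alone class, rho between the score in the authors' deposited table and the mean log2 value of both libraries was -0.45, where it was -0.05 over all members.

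CG41561, also chosen after its values were seen, had 11 dBigH1 reads against 12 input reads. At an RPKM of 3.29 in dBigH1 and 0.807 in input, its read ratio of 3.03 (1.71 to 4.34) was second to that of CG40936 among members with a CG identifier.

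The 10 members within 10 kb of a Stellate-family repeat had a median ratio of 1.91, and 9 of them were at least 1.5-fold higher. The 26 members within 10 kb of another member had a median of 2.10, against 1.63 for the 78 others that reached the RPKM minimum. Members on the plus strand had a median of 1.93 (63 genes that reached the minimum) and those on the minus strand 1.61 (41 genes), with median dBigH1 reads of 26.5 and 19. None of these differences was tested.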
